A study of Mus musculus with 10 samples.

Results

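The genes described here carry out mitosis, from the switch into M phase to the separation of the daughter cells. Of the 29527 genes with values in the intermediate lobe (IL) samples, 57 were taken by symbol: proteins of the kinetochore and centromere, subunits of the spindle checkpoint and the passenger complex, mitotic cyclins and kinases, spindle motors, cytokinesis proteins, condensin subunits and the transcription factors FOXM1 and MYBL2. Each symbol matched 1 gene. RNA of dissected IL, the melanotroph layer of the pituitary, was sequenced from 4 WT, 3 p27-/- and 3 p27-/-;Sox2+/- mice aged 2 to 3 months, with 1 library per mouse and no treatment. The p27-/- mice carried the null allele of Cdkn1b (the gene of P27) on both chromosomes in all tissues, and the p27-/-;Sox2+/- mice had in addition lost 1 copy of Sox2, also in all tissues. Both sexes were used and the mice had a mixed background. The authors list 2 females and 2 males for WT, and 2 females and 1 male for each mutant. A Sox2+/- group with intact p27 was not analysed here, so the effect of the lost Sox2 copy is read only on the p27-/- background. The question behind the design was which changes that follow p27 loss depend on the dose of Sox2.

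P27 inhibits cyclin-dependent kinases and holds cells out of the cell cycle, and the melanotrophs of the adult IL divide rarely. In a dividing cell, CDK1 with cyclin B drives entry into mitosis, condensin compacts the chromosomes, kinetochores built on the centromeres capture spindle microtubules, and a checkpoint holds back CDC20 and the anaphase-promoting complex (APC/C) until every chromosome is attached. Transcripts of these genes accumulate together in G2 and M phase and are scarce in resting cells. In bulk RNA, more dividing cells and more mitotic RNA per cell cannot be told apart.

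Values are the authors' normalised expression levels on a log2 scale, so that a difference of 1 is a doubling. The transformation behind them is not named in the sources used here, and fold changes of weakly expressed genes may be understated on this scale. The depth of each sample cannot be read from the table. Cdkn1b, the targeted gene, was at 8.54, 8.85, 8.39 and 8.66 in WT, 8.27, 8.04 and 8.22 in p27-/- and 8.10, 7.73 and 7.83 in p27-/-;Sox2+/- samples, so the RNA was lower in every mutant sample but not absent. Sox2 was at 7.34, 7.39, 7.75 and 7.34 in WT, 7.33, 7.45 and 7.08 in p27-/- and 7.07, 6.88 and 7.04 in p27-/-;Sox2+/- samples, lowest in the animals with 1 copy. The 5 melanotroph markers (Pomc, Pax7, Tbx19, Pcsk2 and Drd2) had a mean log2 value of 13.03 to 13.55 in every sample, and of the 5 only Pcsk2 differed (0.53 higher in p27-/-, adjusted p = 0.0352).

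Mitotic transcripts were higher in p27-/- IL than in WT. Of the 51 members with a mean of at least 10 on the linear scale, 36 rose and none fell at an adjusted p of 0.05 in limma, against 3.16% of all 17268 tested genes that rose. No member was lower at an unadjusted p under 0.05 either. The median log2 fold change of the members was 0.59 (range 0.05 to 2.19) and that of all tested genes 0.01. In 38 members every p27-/- sample lay above every WT sample, which was so for 10.2% of all tested genes. The proliferation antigen Mki67, the DNA topoisomerase Top2a and the kinetochore protein Cenpf had the 3 largest upward log2 fold changes among the 17268 genes. Of the 100 largest upward changes, 17 were of members. Downward changes reached further, as log2 fold changes of all tested genes ranged from -5.6 to 2.19. Leaving out p27-/- replicate 3 brought the count of members that rose from 36 to 18, and leaving out any other sample gave 29 to 37. Calls fell over the whole table too: 545 genes rose with all samples, and 145 of 17278 without p27-/- replicate 3. The 18 that rose with every sample left out in turn were Birc5, Bub1, Ccnb1, Cdk1, Cenpa, Cenpf, Ect2, Hmmr, Kif11, Kif4, Mki67, Ndc80, Nuf2, Nusap1, Pbk, Smc4, Spc25 and Top2a.

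**Figure D1:**
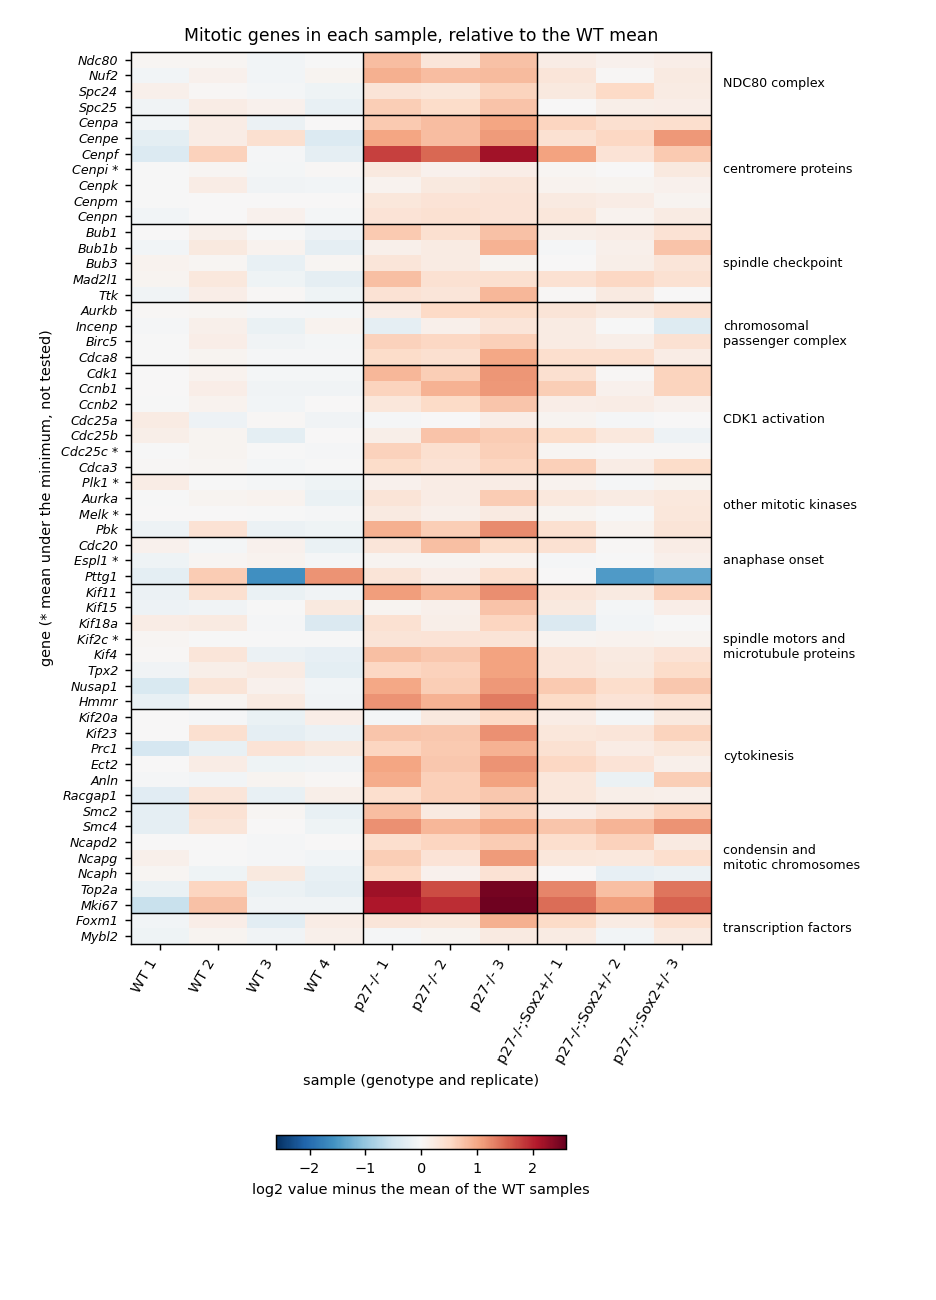
Log2 value of each of the 57 genes (lines, grouped by role) in each of the 10 samples (columns), minus the mean of the 4 WT samples, with red above and blue below WT. The p27-/- columns are red for nearly all genes and deepest for Mki67, Top2a and Cenpf, the p27-/-;Sox2+/- columns are paler, and Pttg1 varies within WT.

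The levels of the p27-/-;Sox2+/- samples lay mostly between those of WT and p27-/-. Against WT, 3 of the 51 members (Smc4, Mki67 and Top2a) rose and none fell. Of all tested genes, 0.828% rose and 325 genes fell. At an unadjusted p under 0.05, 28 members were higher, against 7.64% of the tested genes. None was lower, beside 1756 of all tested genes. Array weights, with the largest weight for p27-/-;Sox2+/- replicate 2, called 8 members higher and 1 lower (Pttg1), beside 412 and 828 of all tested genes. Leaving out WT replicate 2 gave 6 members higher, beside 166 of all tested genes. The fit as described called 143 genes higher. The median log2 fold change of the members was 0.29 (range -0.93 to 1.36), with 0.01 for all tested genes, and in 20 members every p27-/-;Sox2+/- sample exceeded every WT sample, against 7.02% of all genes. Against p27-/-, 50 of the 51 members had a log2 fold change below 0, the median was -0.34, and 8873 of the 17268 tested genes were below 0. Only Nuf2 passed the adjusted threshold, as 0.0637% of the tested genes did in the lower direction. With array weights 16 members passed, all lower, beside 136 of all 17268 tested genes that were lower. With no trend, no filter, or any 1 of 7 samples left out, no member passed, and 0 to 3 of all tested genes were lower. At an unadjusted p under 0.05, 29 members were lower, against 3.19% of the tested genes. None was higher, beside 598 of all tested genes. In 26 members every p27-/-;Sox2+/- sample lay below every p27-/- sample, against 7.75% of all tested genes. All p27-/- samples lay above all p27-/-;Sox2+/- samples, and these above all WT samples, for Ndc80, Cenpa, Cenpm, Bub1, Ccnb2, Tpx2, Hmmr, Top2a and Mki67, or 9 members, an order shown by 0.539% of all tested genes. The WT samples serve both comparisons against WT, and the p27-/- samples serve both the first and the last comparison, so their values are given side by side and are not independent.

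**Figure D2:**
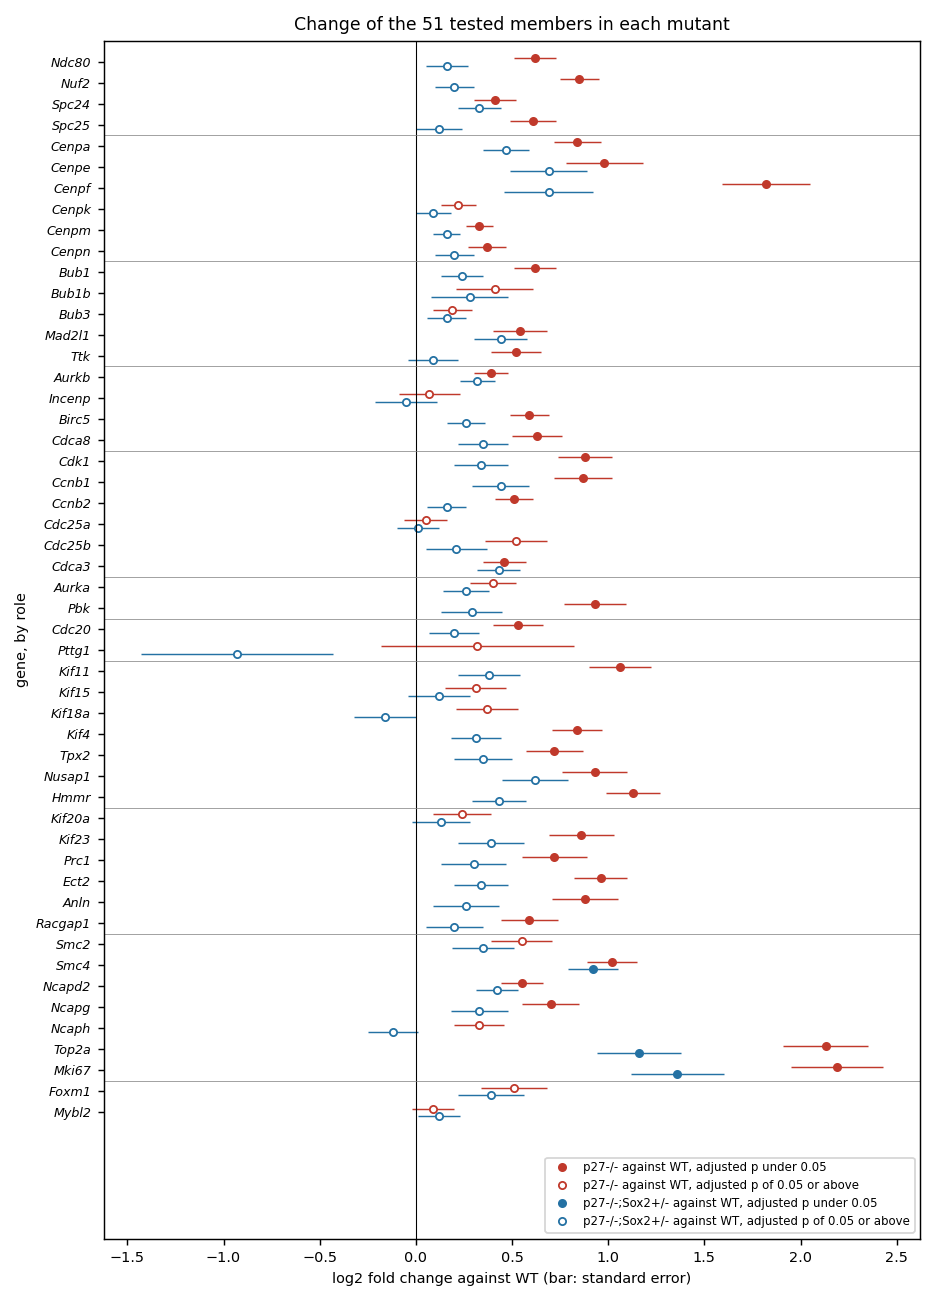
Log2 fold change against WT (horizontal axis, bars are standard errors) of the 51 tested members in p27-/- (red) and p27-/-;Sox2+/- (blue), filled where the adjusted p was under 0.05. Of the red points 36 are filled, and 3 of the blue, Smc4, Top2a and Mki67.

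Many mitotic genes share elements near their transcript start. The cell cycle genes homology region (CHR) binds the MuvB complex, which represses mitotic genes in resting cells and activates them with MYBL2 and FOXM1 in G2, and CCAAT boxes bind NF-Y. A RefSeq promoter of 300 bases (GRCm38.p6, 250 before and 50 after the start) was found for 48 of the 57 members, not for Spc24, Aurkb, Incenp, Cdc25c, Pbk, Tpx2, Kif20a, Smc4 and Foxm1. The CHR was searched as TTTGAA or TTCGAA and the box as CCAAT, both on both strands, where a base may belong to both. Of the 53 member promoters (some genes have several starts), 69.8% held a CHR and 75.5% a CCAAT box, against 19.2% and 37.4% of all 32851 promoters, and 62.3% held both, against 7.52%. A CHR began within 50 bases of the start in 60.4% of member promoters and in 5.31% of all, a distance chosen after the positions had been seen. Among members with a CHR, 25 of 31 tested rose in p27-/- (median log2 fold change 0.62), and among those with a promoter and no CHR 6 of 12 (median 0.46). With a CCAAT box it was 25 of 32 (median 0.62), and with a promoter and no box 6 of 11 (median 0.54). Neither split was tested. A match of letters is a description and does not show that a factor binds there.

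**Figure D3:**
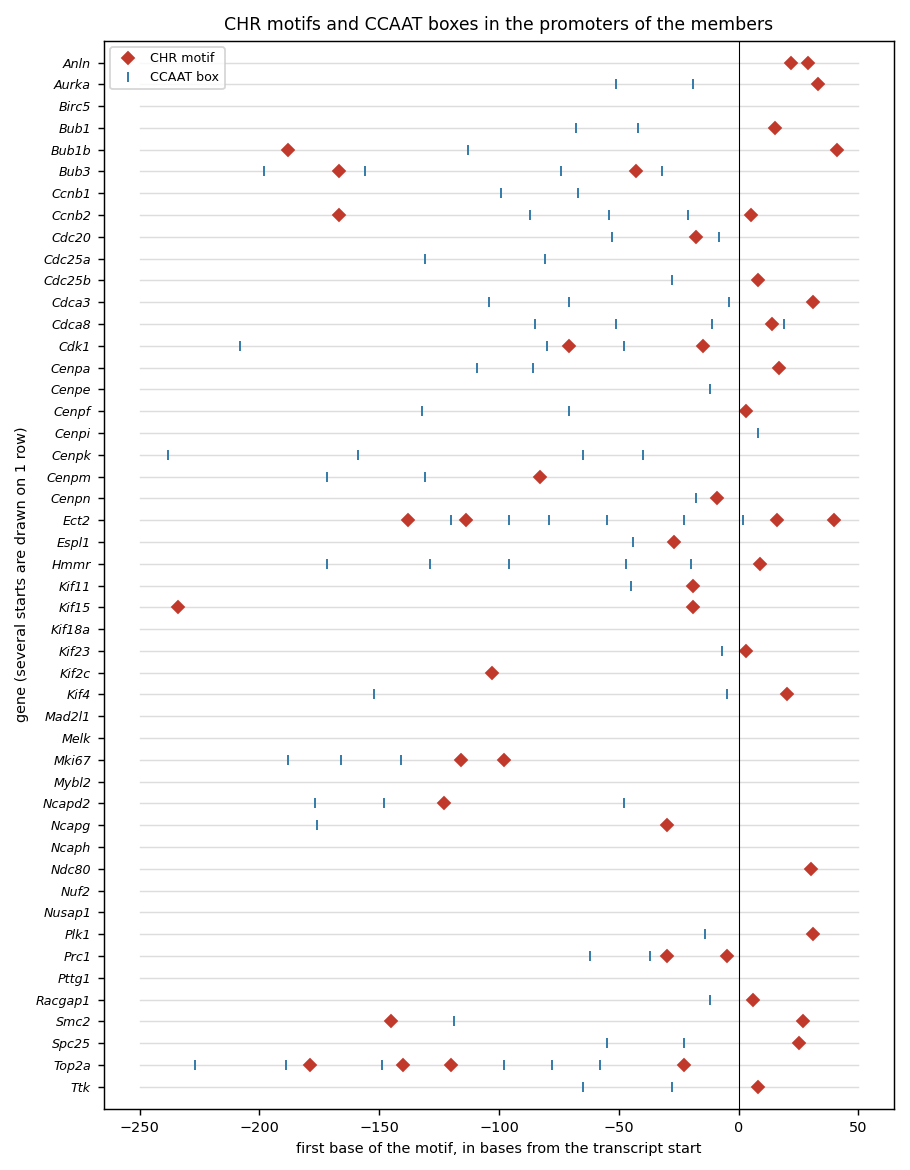
Position of each CHR motif (red diamonds) and CCAAT box (blue ticks) in the promoters of the 48 members that have one, in bases from the transcript start. Diamonds gather within 50 bases of the start, with CCAAT boxes mostly upstream of them, while both CHR motifs of Mki67 lie farther upstream.

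The promoters of the 4 members with both motifs and the largest changes in this set of 48 are printed for Mki67, Top2a, Cenpf and Hmmr, beside Nuf2, the only member past the threshold between the mutants, and Mybl2, which differed little between genotypes. These were chosen after the values had been seen. Each run is 250 bases, 220 before and 30 from the transcript start on, read 5′ to 3′ on the gene's strand, with CHR (TTTGAA, its complement TTCAAA or TTCGAA, which is its own complement) and CCAAT (or ATTGG) in capitals.
Mki67 (chr7:135716350-135716599, minus strand): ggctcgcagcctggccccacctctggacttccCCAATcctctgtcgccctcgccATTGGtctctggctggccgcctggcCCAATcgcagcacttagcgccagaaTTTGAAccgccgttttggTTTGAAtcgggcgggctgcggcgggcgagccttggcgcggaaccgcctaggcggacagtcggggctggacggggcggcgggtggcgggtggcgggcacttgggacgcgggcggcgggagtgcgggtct
Top2a (chr11:99024160-99024409, minus strand): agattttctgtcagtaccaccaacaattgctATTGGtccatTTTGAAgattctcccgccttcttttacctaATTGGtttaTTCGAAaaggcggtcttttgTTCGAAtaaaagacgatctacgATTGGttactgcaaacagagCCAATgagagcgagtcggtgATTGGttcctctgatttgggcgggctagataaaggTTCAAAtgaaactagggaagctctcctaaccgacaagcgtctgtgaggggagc
Cenpf (chr1:189688057-189688306, minus strand): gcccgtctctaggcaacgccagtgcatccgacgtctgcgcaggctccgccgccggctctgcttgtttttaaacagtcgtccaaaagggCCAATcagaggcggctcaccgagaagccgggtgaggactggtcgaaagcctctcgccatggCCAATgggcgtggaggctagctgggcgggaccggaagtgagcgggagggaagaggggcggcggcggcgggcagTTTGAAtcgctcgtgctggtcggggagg
Hmmr (chr11:40733408-40733657, minus strand): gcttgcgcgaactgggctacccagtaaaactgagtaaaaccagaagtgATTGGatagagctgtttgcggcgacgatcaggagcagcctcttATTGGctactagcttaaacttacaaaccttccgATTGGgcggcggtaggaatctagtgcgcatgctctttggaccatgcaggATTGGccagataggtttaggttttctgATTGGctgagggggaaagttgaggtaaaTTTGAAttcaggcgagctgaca
Nuf2 (chr1:169531435-169531684, minus strand): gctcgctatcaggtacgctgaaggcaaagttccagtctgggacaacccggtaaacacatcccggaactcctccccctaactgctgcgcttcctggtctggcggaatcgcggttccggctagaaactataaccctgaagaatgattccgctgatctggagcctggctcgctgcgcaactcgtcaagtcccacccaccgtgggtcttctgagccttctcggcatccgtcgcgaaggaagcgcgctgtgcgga
Mybl2 (chr2:163054415-163054664, plus strand): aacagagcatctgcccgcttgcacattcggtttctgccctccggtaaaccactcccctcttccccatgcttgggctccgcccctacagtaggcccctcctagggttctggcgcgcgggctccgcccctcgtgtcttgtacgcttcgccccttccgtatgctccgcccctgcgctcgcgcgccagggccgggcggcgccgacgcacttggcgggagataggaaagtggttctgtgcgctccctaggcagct
Hmmr shows 5 CCAAT boxes ahead of a CHR that begins at base 9 after the start, Cenpf 2 boxes ahead of a CHR at base 3, and Mki67 its CHRs at -116 and -98. The stretches of Nuf2 and Mybl2 hold neither set of letters, although Nuf2 rose in p27-/- and Mybl2 did not pass the test.

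Mki67, Top2a and the condensin subunits act on the mitotic chromosome itself. Mki67 (ENSMUSG00000031004), which coats mitotic chromosomes and is the common marker of proliferation, was at 6.79, 8.12, 7.27 and 7.26 in WT, 9.47, 9.27 and 9.89 in p27-/- and 8.82, 8.44 and 8.89 in p27-/-;Sox2+/- samples. The 3 groups did not overlap. It was 4.55-fold higher in p27-/- than in WT (log2 fold change 2.19, SE 0.24, adjusted p = 0.000396) and 2.56-fold higher in p27-/-;Sox2+/- (1.36, SE 0.24, adjusted p = 0.0105). The difference between the mutants, -0.83 (SE 0.26), did not pass (adjusted p = 0.382). Top2a (ENSMUSG00000020914), which untangles sister DNA, was at 6.24, 6.98, 6.27 and 6.18 in WT, 8.62, 8.11 and 8.91 in p27-/- and 7.69, 7.21 and 7.82 in p27-/-;Sox2+/- samples, again in 3 separate ranges. Against WT the Top2a log2 fold change was 2.13 in p27-/- (SE 0.22, adjusted p = 0.000246). With 1 Sox2 copy less it was 1.16 (SE 0.22, adjusted p = 0.014), which lost its call without p27-/-;Sox2+/- replicate 1 (adjusted p = 0.0659) or replicate 3. Both Mki67 and Top2a also lost the call in p27-/-;Sox2+/- with posterior lobe markers as a covariate (adjusted p = 0.0591 and 0.068).

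Smc4 (ENSMUSG00000034349), an ATPase subunit shared by condensin I and II, behaved differently from most members. It was at 9.35, 9.89, 9.60 and 9.47 in WT, 10.77, 10.45 and 10.58 in p27-/- and 10.30, 10.46 and 10.74 in p27-/-;Sox2+/- samples. Both mutants lay above WT and their ranges overlapped each other. The log2 fold change of Smc4 was 1.02 in p27-/- (SE 0.13, adjusted p = 0.000865) and 0.92 in p27-/-;Sox2+/- (SE 0.13, adjusted p = 0.00437), with -0.10 (SE 0.14) between the mutants. Some other members that rose in p27-/- also differed little between the mutants, among them Cdca3 (-0.04), Aurkb (-0.07), Spc24 (-0.08), Mad2l1 (-0.10) and Ncapd2 (-0.13). These did not pass in p27-/-;Sox2+/- against WT. Smc4 was the only member that rose in p27-/-;Sox2+/- in every setting tried. Its partner Smc2 did not pass in p27-/- (0.55, adjusted p = 0.0533), the condensin I subunits Ncapd2 (0.55) and Ncapg (0.70) rose, and Ncaph, the kleisin of the same complex, did not (0.33, adjusted p = 0.139). Ncaph was at 4.90, 4.74, 5.11 and 4.66 in WT, 5.36, 4.97 and 5.22 in p27-/- and 4.86, 4.63 and 4.70 in p27-/-;Sox2+/- samples, whose values fell within or just below the WT range. In all, 5 of the 7 genes of this group rose in p27-/-.

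The kinetochore's contact with microtubules is made by the NDC80 complex, and all 4 of its genes, Ndc80, Nuf2, Spc24 and Spc25, rose in p27-/-. Nuf2 (ENSMUSG00000026683) was at 3.90, 4.09, 3.90 and 4.05 in WT, 4.90, 4.78 and 4.81 in p27-/- and 4.30, 4.02 and 4.22 in p27-/-;Sox2+/- samples. The p27-/- samples formed a tight range above all others, and of the p27-/-;Sox2+/- samples replicate 2 lay within the WT range and the other 2 above it. The Nuf2 log2 fold change was 0.85 in p27-/- (SE 0.10, adjusted p = 0.000472), 0.20 in p27-/-;Sox2+/- (SE 0.10, adjusted p = 0.32) and -0.65 between the mutants (SE 0.11, adjusted p = 0.0378). That last call ended when WT replicate 4 or any single mutant sample was left out, with a highest adjusted p of 0.213 and values of -0.71 to -0.57. Spc24, with the smallest change of the group, was at 4.24, 4.15, 4.05 and 4.00 in WT, 4.45, 4.40 and 4.69 in p27-/- and 4.36, 4.62 and 4.32 in p27-/-;Sox2+/- samples (log2 fold change 0.41 in p27-/-, adjusted p = 0.0386), a call that ended with 6 of the 10 samples left out in turn (WT replicates 3 and 4, each p27-/- replicate and p27-/-;Sox2+/- replicate 1).

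**Figure D4:**
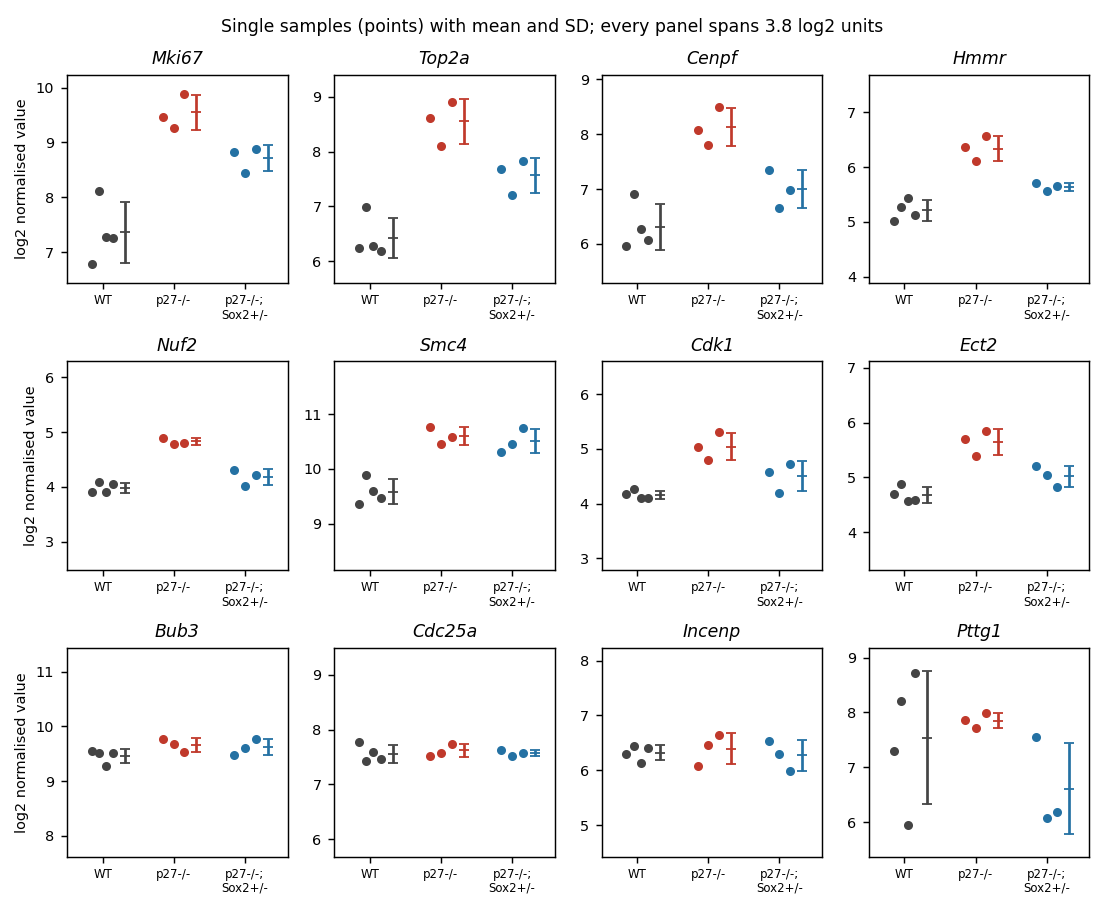
Log2 values of 12 members in single samples (points) with mean and SD (bars) by genotype, every panel spanning the same range. Mki67, Top2a and Hmmr show 3 separate ranges, the p27-/-;Sox2+/- samples of Nuf2 lie near the WT range, with replicate 2 inside it, those of Smc4 lie above WT, and Bub3, Cdc25a and Incenp overlap across genotypes.

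Of the centromere proteins, 5 of the 6 tested rose in p27-/-. Cenpf (ENSMUSG00000026605), a large kinetochore protein made in G2, was at 5.96, 6.91, 6.27 and 6.08 in WT, 8.08, 7.80 and 8.49 in p27-/- and 7.35, 6.66 and 6.99 in p27-/-;Sox2+/- samples. Every p27-/- sample exceeded all others, and p27-/-;Sox2+/- replicate 2 lay within the WT range. The log2 fold change was 1.82 in p27-/- (SE 0.23, adjusted p = 0.000764), 0.69 in p27-/-;Sox2+/- (SE 0.23, adjusted p = 0.122) and -1.13 between the mutants (SE 0.24, adjusted p = 0.132). Cenpa, the histone H3 variant that marks centromeres, rose by 0.84, and Cenpe, a kinesin of the kinetochore, by 0.98. Cenpk, of the constitutive centromere network, did not pass (0.22, adjusted p = 0.157), with 3.47, 3.68, 3.38 and 3.4 in WT against 3.58, 3.73 and 3.79 in p27-/- samples. Cenpi, of the same network, was under the minimum, at 2.66 to 2.76 in WT and 2.83 to 2.96 in p27-/- samples.

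In the spindle checkpoint, 3 of 5 genes rose in p27-/-. Bub1, the kinase that brings the checkpoint to unattached kinetochores, was at 4.04, 4.18, 4.02 and 3.91 in WT, 4.72, 4.46 and 4.81 in p27-/- and 4.19, 4.23 and 4.41 in p27-/-;Sox2+/- samples (log2 fold change 0.62 in p27-/-, SE 0.11, adjusted p = 0.00493). In p27-/-;Sox2+/- it was 0.24 above WT, which did not pass (adjusted p = 0.263). Mad2l1, the checkpoint's inhibitor of CDC20, rose by 0.54 and the kinase Ttk by 0.52. With each of the 10 samples left out in turn, the limma call of Mad2l1 held in 4 fits and that of Ttk in 8. Their highest adjusted p was 0.154 and 0.124. Bub3, the partner that carries BUB1 to the kinetochore, differed little, with 9.55, 9.51, 9.27 and 9.51 in WT, 9.77, 9.67 and 9.53 in p27-/- and 9.48, 9.61 and 9.77 in p27-/-;Sox2+/- samples (0.19 in p27-/-, adjusted p = 0.256). Bub1b did not pass (0.41, adjusted p = 0.238): it was at 5.38 in p27-/- replicate 3 but at 4.62 and 4.69 in the other p27-/- samples, within the WT range of 4.24 to 4.73.

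The chromosomal passenger complex, which corrects wrong attachments through the kinase AURKB, rose in 3 of its 4 genes. Birc5 (survivin) was at 4.11, 4.30, 4.03 and 4.08 in WT, 4.73, 4.67 and 4.75 in p27-/- and 4.35, 4.28 and 4.53 in p27-/-;Sox2+/- samples, with log2 fold changes of 0.59 (SE 0.10, adjusted p = 0.00427) and 0.26 (SE 0.10, adjusted p = 0.188). Cdca8 (borealin) rose by 0.63 and Aurkb itself by 0.39. The scaffold Incenp overlapped in all groups, at 6.29, 6.45, 6.14 and 6.41 in WT, 6.08, 6.46 and 6.64 in p27-/- and 6.53, 6.30 and 5.98 in p27-/-;Sox2+/- samples (0.07 in p27-/-, SE 0.16, adjusted p = 0.831), and its sign turned without p27-/- replicate 3 (-0.053).

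Entry into mitosis depends on CDK1, its cyclins and the CDC25 phosphatases, and 4 of the 6 tested genes of this group rose in p27-/-. Cdk1 (ENSMUSG00000019942) was at 4.17, 4.26, 4.11 and 4.11 in WT, 5.03, 4.79 and 5.30 in p27-/- and 4.57, 4.20 and 4.73 in p27-/-;Sox2+/- samples. The p27-/- samples stood above all others, and p27-/-;Sox2+/- replicate 2 lay within the WT range. The log2 fold change of Cdk1 was 0.88 in p27-/- (SE 0.14, adjusted p = 0.00279), 0.34 in p27-/-;Sox2+/- (SE 0.14, adjusted p = 0.21) and -0.54 between the mutants (SE 0.15, adjusted p = 0.275). Cyclins Ccnb1 (0.87) and Ccnb2 (0.51) rose, as did Cdca3 (0.46), which takes part in degrading the CDK1 inhibitor WEE1. The phosphatases differed among themselves. Cdc25a, which acts in S phase as well, was at 7.77, 7.43, 7.59 and 7.46 in WT, 7.52, 7.58 and 7.74 in p27-/- and 7.63, 7.52 and 7.57 in p27-/-;Sox2+/- samples (0.05 in p27-/-, SE 0.11, adjusted p = 0.82), Cdc25b did not pass (0.52, adjusted p = 0.0655), and Cdc25c, under the minimum and not tested, was at 2.94 to 3.05 in WT, 3.4 to 3.60 in p27-/- and 3.01 to 3.04 in p27-/-;Sox2+/- samples.

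Of the other mitotic kinases, Pbk rose in p27-/-, with 4.50, 5.01, 4.48 and 4.51 in WT, 5.55, 5.26 and 5.85 in p27-/- and 5.04, 4.73 and 4.96 in p27-/-;Sox2+/- samples (log2 fold change 0.93, SE 0.16, adjusted p = 0.00486). Aurka, the kinase of spindle poles, was at 4.28, 4.36, 4.39 and 4.11 in WT and 4.63, 4.48 and 4.94 in p27-/- samples. These ranges did not overlap, yet the change of 0.40 (SE 0.12) just missed the threshold (adjusted p = 0.0517). Plk1 and Melk were under the minimum. Plk1 was at 3.08 to 3.4 in WT and 3.32 to 3.4 in p27-/- samples, and Melk at 2.35 to 2.40 and 2.51 to 2.62.

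At the onset of anaphase, Cdc20, the activator of the APC/C, rose in p27-/-, from 4.41, 4.24, 4.42 and 4.13 in WT to 4.61, 5.09 and 4.78, with 4.70, 4.33 and 4.49 in p27-/-;Sox2+/- samples (log2 fold change 0.53, SE 0.13, adjusted p = 0.0291). The call ended without WT replicate 4, p27-/- replicate 2 or p27-/- replicate 3, and the highest adjusted p was 0.128. Pttg1 (securin), the inhibitor of separase, was at 7.29, 8.21, 5.94 and 8.71 in WT, 7.87, 7.71 and 7.98 in p27-/- and 7.56, 6.07 and 6.19 in p27-/-;Sox2+/- samples. The WT samples alone spanned more than the difference between any groups, with an SD of 1.22, and no comparison passed in limma. The Pttg1 log2 fold change was 0.32 in p27-/- (SE 0.50, adjusted p = 0.748) and -0.93 in p27-/-;Sox2+/- (SE 0.50, adjusted p = 0.355). Between the mutants it was -1.25 (SE 0.54, adjusted p = 0.681), with every p27-/-;Sox2+/- sample below every p27-/- sample, as for 7.75% of all tested genes. Separase, Espl1, was under the minimum, at 2.71 to 2.91 in WT and 2.90 to 2.91 in p27-/- samples.

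Spindle motors and microtubule proteins rose in 5 of 7 tested genes, and cytokinesis proteins in 5 of 6. Hmmr (ENSMUSG00000020330), which helps to build spindle poles, was at 5.01, 5.28, 5.44 and 5.12 in WT, 6.37, 6.11 and 6.56 in p27-/- and 5.71, 5.56 and 5.65 in p27-/-;Sox2+/- samples. The 3 groups lay in separate ranges, with log2 fold changes of 1.13 in p27-/- (SE 0.14, adjusted p = 0.000612), 0.43 in p27-/-;Sox2+/- (SE 0.14, adjusted p = 0.113) and -0.70 between the mutants (SE 0.15, adjusted p = 0.105). Kif11 (1.06), the motor that pushes spindle poles apart, Nusap1 (0.93), the chromokinesin Kif4 (0.84) and Tpx2 (0.72) also rose. Kif15, a motor that can share the work of Kif11, did not pass (0.31, adjusted p = 0.254), with 5.03 to 5.42 in WT and 5.24, 5.30 and 5.90 in p27-/- samples. Kif18a did not pass either (0.37, adjusted p = 0.171). It was at 6.67 to 7.27 in WT, 7.19 to 7.59 in p27-/- and 6.67 to 7.02 in p27-/-;Sox2+/- samples. Between the mutants Kif18a differed by -0.53 (adjusted p = 0.418). Kif2c, a microtubule depolymerase under the minimum, was at 2.56 to 2.63 in WT, 2.92 to 2.93 in p27-/- and 2.65 to 2.68 in p27-/-;Sox2+/- samples.

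Ect2, the exchange factor that activates RhoA at the cleavage furrow, was at 4.69, 4.87, 4.57 and 4.59 in WT, 5.70, 5.38 and 5.85 in p27-/- and 5.21, 5.04 and 4.82 in p27-/-;Sox2+/- samples. The log2 fold change of Ect2 was 0.96 in p27-/- (SE 0.14, adjusted p = 0.00149) and 0.34 in p27-/-;Sox2+/- (SE 0.14, adjusted p = 0.199). The furrow protein Anln (0.88), the midzone motor Kif23 (0.86), its partner Racgap1 (0.59) and the bundling protein Prc1 (0.72) rose in p27-/-. The midzone motor Kif20a did not (0.24, adjusted p = 0.33), with 5.20, 5.15, 5.0 and 5.36 in WT against 5.12, 5.44 and 5.70 in p27-/- samples.

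Neither transcription factor passed the test. Foxm1 was at 4.73, 4.98, 4.53 and 5.0 in WT, 5.12, 5.11 and 5.74 in p27-/- and 5.31, 5.03 and 5.25 in p27-/-;Sox2+/- samples, with all mutant samples above all WT samples and log2 fold changes of 0.51 (SE 0.17, adjusted p = 0.0753) and 0.39 (SE 0.17, adjusted p = 0.236). Mybl2 was at 3.99, 4.19, 4.02 and 4.24 in WT, 4.07, 4.19 and 4.34 in p27-/- and 4.32, 4.04 and 4.34 in p27-/-;Sox2+/- samples, which overlapped throughout (0.09 in p27-/-, SE 0.11, adjusted p = 0.649).

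Other genes of cell division were read beside the members. Of 64 further mitotic genes, 54 were tested, and 19 rose in p27-/- (median log2 fold change 0.34), with the largest change for Gas2l3 (1.16, adjusted p = 0.000445), a protein of the midbody, and the smallest for the spindle pole protein Numa1 (0.02). In p27-/-;Sox2+/- only Gas2l3 (0.80) and Ckap2 (0.78) rose, and between the mutants none passed in limma, with 9 lower and none higher at an unadjusted p under 0.05. Of 25 subunits of the APC/C, cohesin and condensin II, which are present through most of the cycle, 3 rose in p27-/-, Cdc23, Ncapd3 and Ncaph2 (median of the list 0.12). Of 30 DNA replication genes, 8 rose in p27-/- (median 0.31), led by Mcm2 (0.53, adjusted p = 0.00797), while Orc1 was at -0.23 (adjusted p = 0.262). None rose in p27-/-;Sox2+/- in limma (11 at an unadjusted p under 0.05, median 0.25). Of all tested genes, 3.16% rose in p27-/- and 0.828% in p27-/-;Sox2+/-. At an unadjusted p under 0.05, 7.64% were higher in p27-/-;Sox2+/- than in WT and 3.19% were lower between the mutants. Between the mutants the medians were -0.11 for the further mitotic genes, -0.11 for replication and 0.00 for the complexes, beside -0.34 for the members.

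**Figure D5:**
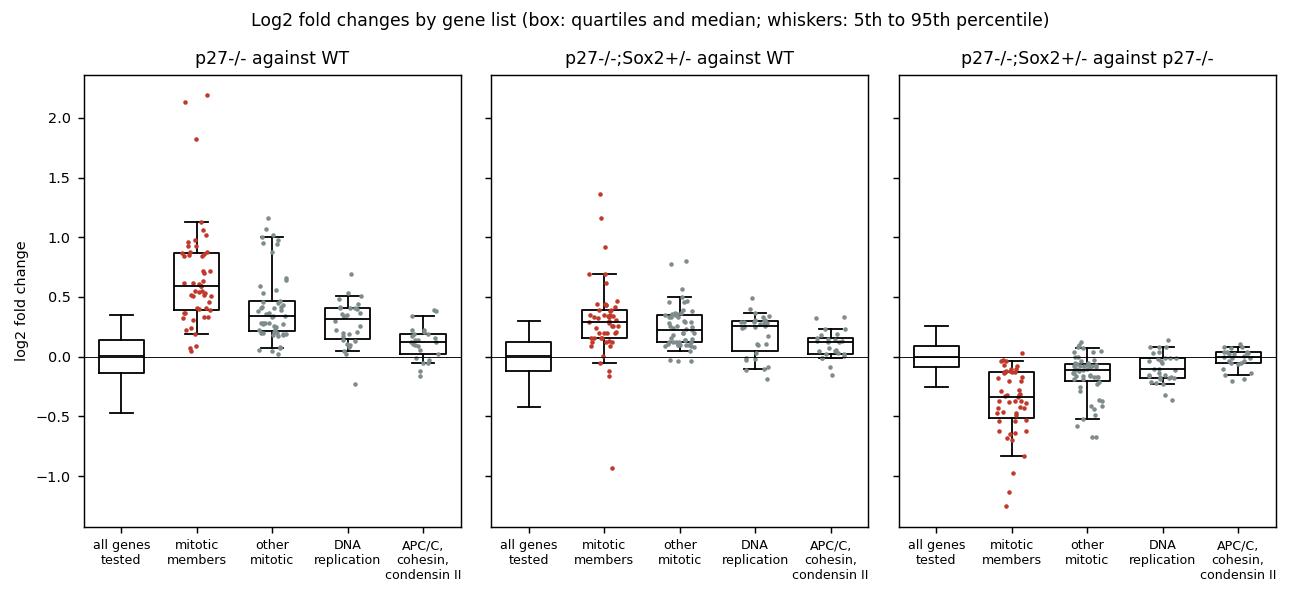
Log2 fold changes in the 3 comparisons for all 17268 tested genes, the 51 mitotic members and 3 other lists, with a box for the quartiles, whiskers for the outer percentiles named in the title and a point per gene. The members' median is 0.59, 0.29 and -0.34 in turn, and those of the other lists lie closer to 0.

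Samples of a genotype differed in the level of the whole set. Averaged over the 51 members, the deviation from the WT mean was -0.07, 0.17, -0.06 and -0.04 in WT, 0.62, 0.55 and 0.85 in p27-/- and 0.35, 0.20 and 0.34 in p27-/-;Sox2+/- samples, 3 ranges that do not overlap. WT replicate 2 was the highest WT sample for 29 members (22.4% of all tested genes), p27-/- replicate 3 the highest of its genotype for 39 (31.6%), and p27-/-;Sox2+/- replicate 2 the lowest of its genotype for 31 (28.3%). Adjoining tissue also varied. The mean log2 value of 5 anterior lobe markers (Gh, Prl, Tshb, Fshb and Pou1f1) was 11.02 in WT replicate 2 and 8.76 to 9.33 in the other WT samples, 8.13 to 9.85 in p27-/- and 8.09 to 9.06 in p27-/-;Sox2+/- samples, and of these markers Fshb fell in both mutants. The mean of 5 posterior lobe markers (Rax, Col25a1, Nkx2-1, Lhx2 and Tbx3) was 5.03 to 6.42 in WT, 5.15 to 5.46 in p27-/- and 4.75 to 6.19 in p27-/-;Sox2+/- samples, and all 5 were below WT in both mutants, with median log2 fold changes of -0.65 and -0.62 (lowest -1.04 and -1.23), though none passed the test. With that mean as a covariate, an alternative added after the data had been seen, 24 members rose in p27-/-, 1 in p27-/-;Sox2+/- (Smc4), and Nuf2 remained lower between the mutants. Of all tested genes, 147 rose in p27-/- and 38 in p27-/-;Sox2+/- with this covariate, against 545 and 143 without it. Of 5 endothelial markers Kdr fell in both mutants, and 1 of 4 tested stem cell markers (Cdh1) and 1 of 5 of fibroblasts and mural cells (Pdgfra) fell in p27-/-. In the same fit, without the covariate, 798 of all 17268 tested genes fell in p27-/- and 325 in p27-/-;Sox2+/-. The median of the fibroblast and mural markers was -0.53 in p27-/- and -0.33 in p27-/-;Sox2+/-. All 5 macrophage and microglia markers were below WT in both mutants (medians -0.17 and -0.40), and neither these nor the 3 erythrocyte markers passed. Apart from the posterior lobe covariate, no fit included the markers of these tissues and cells, and their part in the mitotic changes was not tested.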

How the data were processed

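RNA of dissected IL was sequenced in bulk from 10 mice. Reads were aligned with STAR 2.5.2a and counted per gene with RSEM 1.3.30 on the Ensembl transcriptome of mouse GRCm38, without strand, and normalised with DESeq2 1.18.1 by the authors, who deposited log2 values for 29527 genes. The table holds no read counts, so depth is unknown and intervals or floors that need it are left out. Precision is limited by how many mice there were. Overlapping and antisense genes cannot be told apart.

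Gene IDs were paired with symbols for 22709 genes. The values were used as deposited. The 17268 genes whose average reached 10 on the linear scale (3.32 in log2) were tested with limma 3.58.1 in R 4.3.3. A single model held all genotypes, with eBayes moderation along the mean, and p-values were adjusted by Benjamini-Hochberg over all of them, with a threshold of 0.05. The fit was tested on simulated data. A fold change and its error come from that fit. Samples were grouped by the genotype in their labels. Replicate numbers did not pair samples (correlations of deviations between same-numbered samples of -0.238 to 0.182), so the fit had no block. Promoters and gene positions were those of RefSeq, GRCm38.p6, matched by symbol. Python 3.11.15 with matplotlib 3.10.9, pandas 2.3.3 and numpy 2.4.6 served for tables and plots.

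The members and lists were chosen with earlier results of these data known. By rule, members were named in full if they had the smallest p or the smallest change of their role group in p27-/-, were past the threshold between the mutants, or were among the 3 smallest p in p27-/-;Sox2+/-, with Mki67 and Top2a added. Untested members were given by level only. Other members in the text complete a count. The alternatives were each sample left out, the filter on low values raised or dropped, the third genotype left out of the model, Xist or a replicate block as a term, quantile normalization, median centring, array weights, and no trend. The Xist term stands for sex. Tests on counts and other pseudocounts could not be applied to log2 values. Single-cell data and samples of other ages were not analysed here.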

Additional observations from a re-analysis of the deposited data

Results flagged for a closer look

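Of 25 measures searched in the 4 WT samples, 4 had a sample whose gap to the nearest other, divided by the range of the group, exceeded the critical value of Dixon's test, and chance gives about 1.2. In WT replicate 2 the mean deviation of the 51 members was 0.17, against -0.07 to -0.04 in the other WT samples (ratio 0.905), Top2a was at 6.98 against 6.18 to 6.27 (0.885) and Pbk at 5.01 against 4.48 to 4.51 (0.939). Top2a and Pbk are among the 51 members averaged, so the flags of WT replicate 2 are not independent of each other. The anterior lobe markers were also highest in that sample, at a mean of 11.02. Bub3 was lowest in WT replicate 3, at 9.27 against 9.51 to 9.55 (0.854). With chance flagging about 1 in 20 such groups, these values are given without a cause.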

How the results depend on the processing

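In p27-/- against WT, 36 members rose in the fit as described. A minimum mean of 50 tested 21 members and called 15, with a median log2 fold change of 0.717, fewer members being tested by construction. The other settings with all samples called 24 to 38 members and gave medians of 0.529 to 0.613, and with 1 sample left out 18 to 37 members and 0.526 to 0.643, 18 without p27-/- replicate 3. In p27-/-;Sox2+/- against WT, 3 members passed, against 5 with no trend, 9 with array weights, 5 with quantile normalization, 1 with posterior lobe markers as a covariate (added after seeing the data), and 2 to 6 with a sample left out. Medians lay between 0.229 and 0.349 with all samples and between 0.248 and 0.337 with 1 left out. Between the mutants, 1 member passed, against 0 with no filter, 0 with a mean of at least 50 (where Nuf2 was not tested), 2 with only the genotypes compared, 0 with no trend, 16 with array weights and 0 to 2 with a sample left out. Medians were -0.384 to -0.323 and -0.388 to -0.248. Counts over all tested genes moved with the setting as well. In p27-/- against WT, 402 to 1764 genes passed in either direction, beside 1343 in the fit as described. For p27-/-;Sox2+/- against WT the range was 79 to 1240, beside 468, and between the mutants 0 to 283, beside 25. The cause of these differences was not tested. With the replicate number as a block, although the numbers did not pair samples, 26, 2 and 0 members passed in the 3 comparisons. In at least 1 setting the sign turned for 3 of the 51 members in p27-/- against WT, for 5 in p27-/-;Sox2+/- against WT (Cdc25a, Incenp, Kif15, Kif20a and Mybl2) and for 11 between the mutants (Bub1b, Bub3, Cdc25a, Cdca3, Foxm1, Incenp, Kif15, Kif20a, Mad2l1, Mybl2 and Spc24), none of them past the threshold. Among values given in full, those in p27-/- were Cdc25a without p27-/- replicate 3 (-0.012, and up to 0.121 with another sample left out), Incenp without it (-0.053, up to 0.226) and with posterior lobe markers (-0.041), Pttg1 with array weights (-0.047) and without WT replicate 3 (-0.217, up to 0.707), and between the mutants Spc24 with array weights (0.008) and without p27-/- replicate 3 (0.007, down to -0.172). The groups of 3 and 4 mice, the unknown depth and the unnamed transformation limit what small changes of weakly expressed members can show.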
